A study of Saccharomyces cerevisiae with 12 samples.

Results

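Wild-type (WT) budding yeast of the BY4741 background, grown to exponential phase in a rich glucose medium that the labels call clean YPD, was sequenced once without and once with bathophenanthroline disulfonate (BPS) at 100 µM for 4 hours. BPS is a chelator of ferrous iron that stays outside the cell. These 2 libraries of messenger RNA are the pair taken from the 12 libraries of the series by medium and treatment, and they stand in 1 deposited table. With 1 library a side there is no replicate check and no test, so each ratio below compares 2 libraries and is a description. The libraries used beside them are AFT1-C291F, 1 library carrying an AFT1 allele known to be active when iron is plentiful, mmm1Δ, 2 libraries lacking a subunit of the tether between endoplasmic reticulum and mitochondria, and the 2 WT libraries, each grown to exponential phase in YPD in the same background and with no chelator. Ranges over the 10 other libraries of the series also take in 1 YPD library each of mdm34Δ, VPS13-D716H, VPS13-D716H mmm1Δ, sam37Δ and VPS13-D716H sam37Δ. What sets clean YPD apart from YPD is not given in the sources used here, nor which of 2 kits, TruSeq or KAPA stranded, made which library.

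Values are FPKM, fragments per kilobase of transcript, scaled to the mapped fragments of the library, and a ratio is log2 of (FPKM + 1) with BPS over (FPKM + 1) without, which understates the change of genes with few fragments. The filter kept genes whose mean FPKM in the pair was 5 or more, and 2-fold, a ratio of 1 or −1, was the size counted as higher or lower. In bulk RNA, fewer cells with a transcript and less of it per cell cannot be told apart. The strain was checked against its markers. URA3 was listed at 0 in both libraries, and LEU2 and MET17 were listed at 0 in the control and at 0.268 and 1.69 with BPS, as for genes deleted in BY4741. HIS3, deleted only in part in this background, was at 238 and 168. The a-factor genes MFA1 and MFA2 were at 16923 and 47459 without BPS, and ASG7, the lowest of the listed a-specific genes, was at 39.5. Of the listed α-specific genes, the receptor gene STE3 was at 5.16, MF(ALPHA)1 at 5.53, MF(ALPHA)2 at 18.7 and SAG1 at 35.9. SAG1 was thus close to ASG7, and the markers did not separate at their margins. The depth of the libraries is unknown, and 158 genes without and 144 with BPS were listed at 0.

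Iron is needed in yeast for iron-sulfur clusters, for heme and for enzymes that bind iron directly. When it runs short, the transcription factor Aft1, helped by Aft2, switches on genes of iron uptake and of iron release from the vacuole, the set known as the iron regulon. One product of that set, Tis11 (also named Cth2), binds AU-rich elements behind the stop codon of messengers for iron-using proteins and speeds their decay, so that scarce iron is spared for essential uses. Aft1 itself is held back when mitochondria make iron-sulfur clusters, through the glutaredoxins Grx3 and Grx4 and the Fra proteins.

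Of 6262 genes that passed the filter, 199 were at least 2-fold higher with BPS, which is 3.18%, and 245 were at least 2-fold lower, which is 3.91%. The median over all of them was −0.01. At 4-fold the counts were 67 higher and 64 lower, and 20 of the 67 belong to the 29 genes of the iron regulon list. At 16-fold they were 29 higher, 9 of them in the regulon list, and 21 lower. Of genes 300 nt or longer with a locus of their own, 8 were higher at 16-fold and 7 of these are in the regulon, while 0 were lower. All 29 genes of that list passed the filter and 27 were at least 2-fold higher, with a list median of 2.26. Of the 199 higher genes, 42 were under an FPKM of 5 without BPS, LSO1 among them, and of the 245 lower genes 49 were under it with BPS, so that these passed the filter through the library where they were high. Of 54 proteins listed as iron-using, all of which passed, 25 were at least 2-fold lower and 1 was higher, with a median of −0.88. Ratios did not drift with gene length in this pair, since the median was between −0.02 and 0.02 in 4 classes of length.

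**Figure D1:**
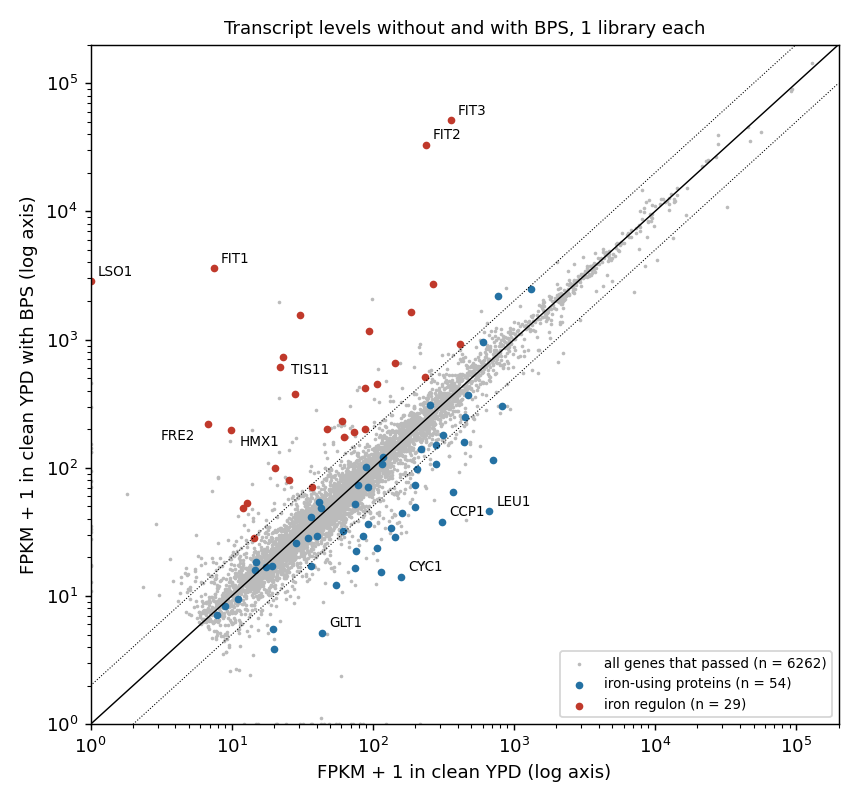
FPKM + 1 of each gene in the library without BPS (horizontal) against the library with BPS (vertical), both on log axes. Dotted lines mark 2-fold. The 29 iron regulon genes (red) lie above the line of equality, and 43 of 54 iron-using proteins (blue) lie below it.

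The share of the library taken by the regulon shows the scale of the difference. Weighted by gene length, the 29 genes held 0.178% of all FPKM without BPS and 4.56% with it. FIT2 and FIT3 alone went from 0.0207% to 2.92%. The iron-using proteins held 0.923% without and 0.719% with BPS, and the subunits of the respiratory chain with ATP synthase 0.49% and 0.319%. Cytosolic ribosomal proteins held 27.7% and 28.1%.

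Siderophore uptake showed the highest ratios. Siderophores are iron carriers made by other microbes, which yeast takes up but does not make. The list holds 3 cell wall mannoproteins that keep siderophore-bound iron at the surface, FIT1, FIT2 and FIT3, and 4 transporters. All 7 were at least 2-fold higher, and the median of the list was 5.65. FIT1 (YDR534C) was at 6.47 without and 3600.0 with BPS, a ratio of 8.91. FIT3 (YOR383C) had a lower ratio, 7.18, from a higher start, 356 to 51534. FIT2 (YOR382W), its neighbour on chromosome XV, had a ratio of 7.12 and was at 236 and 33041. Each of the 3 was above its highest value in the 10 other libraries of the series, which was 1026 for FIT1, 13822 for FIT2 and 18121 for FIT3, although those come from other tables with their own scaling.

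Among the transporters, ARN2, for triacetylfusarinine C, was at 29.7 without and 1544 with BPS, with a ratio of 5.65, though it shares a locus with another listed gene and is uncertain for that reason. SIT1, which takes ferrioxamine B, was at 22.1 and 727, a ratio of 4.98. The other 2 transporters had lower ratios. ARN1, for ferrichrome, was at 27.1 and 375 (3.74), and ENB1, which is specific for enterobactin, was at 92.6 and 1171 (3.65). ENB1 thus had the highest level of the 4 without BPS and the lowest ratio.

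The stretches of DNA that hold the Aft1 motif before the genes with the highest ratios, or of best-known function, are shown first, because the motif is what most of the regulon shares in sequence. They were read from the RefSeq genome, assembly R64 (sacCer3), within 500 bases before the start codon, on the strand of the gene and 5′ to 3′. Capitals mark TGCACCC or, where the motif lies on the other strand, its reverse complement GGGTGCA. The stretches are FIT1 at chrIV:1505061-1505199 (− strand), FIT2 at chrXV:1059185-1059421 (+ strand), FIT3 at chrXV:1061218-1061355 (− strand), ENB1 at chrXV:21427-21519 (− strand), SIT1 at chrV:27454-27490 (+ strand), FET3 at chrXIII:388556-388592 (+ strand), FTR1 at chrV:461894-462120 (− strand), FRE2 at chrXI:11635-11671 (− strand), TIS11 at chrXII:416810-416922 (− strand), HMX1 at chrXII:554107-554143 (− strand) and LSO1 at chrX:448882-448918 (− strand).
FIT1: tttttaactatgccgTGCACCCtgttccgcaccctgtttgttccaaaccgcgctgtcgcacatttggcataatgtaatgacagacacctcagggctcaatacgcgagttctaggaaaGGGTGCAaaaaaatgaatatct
FIT2: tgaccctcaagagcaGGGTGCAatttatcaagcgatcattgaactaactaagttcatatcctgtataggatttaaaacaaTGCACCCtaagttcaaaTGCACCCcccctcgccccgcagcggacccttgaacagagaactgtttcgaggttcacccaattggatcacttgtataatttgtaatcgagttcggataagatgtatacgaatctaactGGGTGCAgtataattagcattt
FIT3: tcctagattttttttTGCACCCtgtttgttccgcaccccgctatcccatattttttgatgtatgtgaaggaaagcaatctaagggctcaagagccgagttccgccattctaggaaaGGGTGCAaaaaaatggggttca
ENB1: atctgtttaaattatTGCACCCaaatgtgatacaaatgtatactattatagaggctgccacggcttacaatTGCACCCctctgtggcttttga
SIT1: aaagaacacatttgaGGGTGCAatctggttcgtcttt
FET3: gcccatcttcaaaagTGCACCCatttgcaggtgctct
FTR1: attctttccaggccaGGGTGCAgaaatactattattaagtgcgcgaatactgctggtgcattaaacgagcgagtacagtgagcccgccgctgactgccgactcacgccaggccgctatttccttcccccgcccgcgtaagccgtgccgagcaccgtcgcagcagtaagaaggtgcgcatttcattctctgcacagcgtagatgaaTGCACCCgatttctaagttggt
FRE2: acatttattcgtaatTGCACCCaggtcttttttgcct
TIS11: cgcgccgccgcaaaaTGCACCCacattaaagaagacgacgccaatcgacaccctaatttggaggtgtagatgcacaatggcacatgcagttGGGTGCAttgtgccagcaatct
HMX1: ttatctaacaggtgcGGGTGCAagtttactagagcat
LSO1: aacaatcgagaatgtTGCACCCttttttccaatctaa

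FIT2 carried 4 matches, and FIT1, FIT3, ENB1, FTR1 and TIS11 carried 2 each. FIT1 and FIT3, on chromosomes IV and XV, share a run of 25 bases around 1 match, ttctaggaaaGGGTGCAaaaaaatg, which begins 192 bases before the start codon of FIT1 and 194 before that of FIT3. The match nearest the start codon lay between 125 bases (FIT2) and 445 bases (HMX1) away from it in these 11 genes. Over all genes with such a window, TGCACCC on either strand was found in 139 of 5985, which is 2.32%. It was found in 22 of the 29 regulon genes (75.9%), in 28 of the 148 genes at least 2-fold higher that have a window (18.9%), and in 18 of 48 that were at least 4-fold higher (37.5%). Of 195 genes at least 2-fold lower, 3 held it (1.54%). The shorter core GCACCC, which lies inside TGCACCC, was in 7.62% of all windows, 31.1% of those of higher genes and 5.13% of those of lower genes.

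The number of matches went with the ratio in this pair. Genes with no TGCACCC had a median ratio of −0.01 (5604 genes), those with 1 match 0.16 (117 genes) and those with 2 or more 2.58 (12 genes, 8 of them in the regulon list). Among genes in none of the lists, the medians were at 0 to 2 decimals for 5052 genes, 0.11 for 93 and 0.28 for 4, and 0 of these 4 was past 2-fold. With 1 match, 17.9% were at least 2-fold higher, so most genes with a single match were not. The regulon genes with no TGCACCC in the window were COT1, ECM4, FRE1, FTH1, ISU2, MRS4 and VHT1, and each was at least 2-fold higher. Outside the regulon list, 8 genes with the motif were at least 2-fold higher, FET4, FMP23, FRM2, NFT1, RRT6, VMR1, YCR022C and YPL278C. Of these, FRM2, NFT1 and YCR022C were under an FPKM of 5 without BPS. A match describes the letters of the window and not whether Aft1 was bound.

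The reductive route of iron uptake had lower ratios than the siderophore list. In it, surface reductases turn ferric into ferrous iron, the multicopper oxidase Fet3 oxidizes it again and the permease Ftr1 carries it in. Of 10 listed genes, 8 were at least 2-fold higher and the median was 2.15. FRE2, a surface ferric reductase, was at 5.75 without and 219.6 with BPS, a ratio of 5.03. FRE1, the other main surface reductase, began higher, at 46.1, and reached 201, a ratio of 2.10. The 2 reductases therefore stood at similar levels with BPS, and at levels well apart without it.

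FET3 was at 266 and 2699, a ratio of 3.34. FTR1, whose protein leaves the endoplasmic reticulum only together with Fet3, was at 185 and 1629, a ratio of 3.13. The copper supply of Fet3 had lower ratios. ATX1, the copper chaperone, was at 142 and 657 (2.20), and CCC2, the pump that loads copper in the Golgi, at 10.9 and 47.7 (2.03), with a shared locus. In the 10 other libraries of the series ATX1 ranged from 349 in WT replicate 2 to 3201 in WT replicate 1. Its level without BPS was thus below all of them, and its level with BPS below their median of 733. FRE3, which reduces siderophore-bound iron, had a ratio of 2.28, and the vacuolar reductase FRE6 one of 1.36. FRE4 and FRE5 were just under 2-fold, at 0.97 and 0.93.

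Genes that move iron out of stores and between organelles were also higher, 8 of 8, with a median of 1.71. HMX1, a heme oxygenase that frees iron from heme, had the highest ratio of them, 4.33, and was at 8.86 without and 198 with BPS. In the 10 other libraries HMX1 lay between 5.74 and 43.7. FTH1 and FET5, the vacuolar counterparts of Ftr1 and Fet3, had ratios of 2.26 and 1.94, and the vacuolar iron exporter SMF3 had 1.17. COT1, a vacuolar transporter of zinc and cobalt, had 2.07.

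MRS4, a carrier of iron into mitochondria, was at 61.2 and 172, a ratio of 1.48. Its paralog MRS3 stayed near its start with 0.25. ISU1 and ISU2, the scaffolds on which mitochondria build iron-sulfur clusters, had ratios of 1.15 and 1.13, and both share a locus with another gene. The lowest ratios of the regulon were thus in mitochondrial and vacuolar steps and in FRE4 and FRE5.

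The regulon's remaining members include its RNA-binding arm. TIS11 was at 20.9 without and 614 with BPS, a ratio of 4.81. CTH1, its paralog, did not share this, at 75.8 and 47.7 (−0.66). LSO1, a small gene of 282 nt, was listed at 0 in the control and reached 2846 with BPS, so that no ratio is given. Its paralog LSO2, whose protein binds ribosomes, was at 1099 and 746. ECM4, a glutathione transferase, had a ratio of 2.06 and VHT1, the plasma membrane transporter of biotin, 1.67. BIO5, which imports a precursor of biotin and is outside the regulon list, was at 6.95 and 83.9, a ratio of 3.42.

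**Figure D2:**
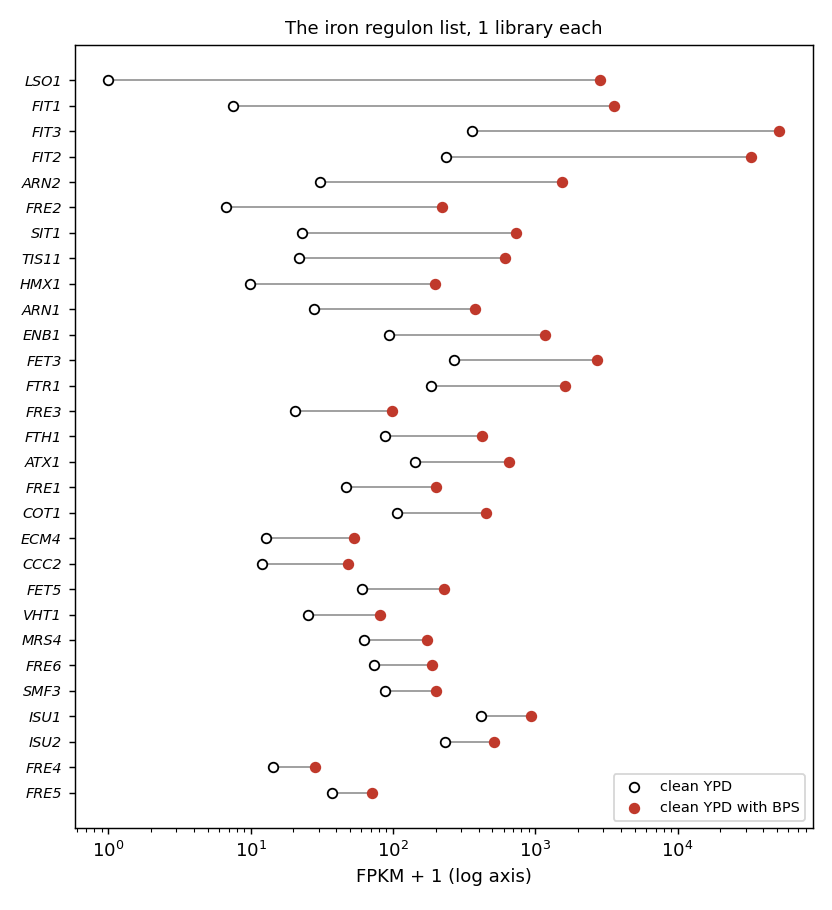
FPKM + 1 (log axis) of the 29 iron regulon genes in the single library without BPS (open) and the single library with it (red), ordered by ratio. LSO1, at the top, was listed at 0 without BPS. Levels with BPS spanned 27.2 (FRE4) to 51534 (FIT3).

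Regulators of iron and heme showed few differences of this size. Of 23 listed, 2 were at least 2-fold higher and 2 lower, and the median was 0.06. AFT1 itself was at 25.6 without and 57.7 with BPS (1.14), and AFT2 at 42.1 and 66.9 (0.66). UPC2, a regulator of sterol uptake, had a ratio of 1.39. GRX4 was lower, 132 to 30.1, a ratio of −2.10. GRX3, which has the same role, had 0.07, and FRA1 and FRA2, which work with them, had 0.01 and 0.17.

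HAP4, the activating subunit of the complex that drives genes of respiration, was at 176 and 41.9, a ratio of −2.04. Its partners HAP2, HAP3 and HAP5 had −0.50, −0.02 and 0.27. Yap5 activates genes when iron is in excess, and 2 of its 4 listed targets were lower. These are GRX4 and CCC1, which carries iron into the vacuole and was at 114 and 26.7, a ratio of −2.06. The other 2 targets, TYW1 and CUP1-1, had −0.39 and −0.16, and CUP1-1 has a near-identical copy. YAP5 itself was at 37.3 and 62.6 (0.73).

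Proteins that carry iron were on the low side, but unevenly. Of 23 iron-sulfur proteins 13 were at least 2-fold lower, with a median of −1.54. LEU1 (YGL009C), the isopropylmalate isomerase of leucine synthesis, had the lowest ratio of all genes 300 nt or longer with a locus of their own, −3.87, from 671 to 44.8. GLT1 (YDL171C), glutamate synthase, was at 43.0 and 4.17 (−3.09). SDH2, the iron-sulfur subunit of succinate dehydrogenase, was at 113 and 14.4 (−2.88).

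ILV3, the dehydratase of isoleucine and valine synthesis, was at 713 without and 114 with BPS, a ratio of −2.63. Among the others that were lower were the Rieske protein RIP1 (−2.32), homoaconitase LYS4 (−2.19), biotin synthase BIO2 (−2.17), the diphthamide enzyme DPH2 (−1.99), the sulfite reductase subunit MET5 (−1.82), lipoate synthase LIP5 (−1.54) and aconitase ACO1 (−1.05). RLI1, an essential iron-sulfur protein that recycles ribosomes, was at 159 and 43.4 (−1.85). The iron-sulfur proteins of DNA replication and repair stood apart from these in their values. POL2, POL3, PRI2, CHL1, DNA2, RAD3 and NTG2 had ratios between −0.45 and 0.17.

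Of 15 heme proteins 9 were at least 2-fold lower, with a median of −1.37. CYC1, cytochrome c, was at 157 without and 13.1 with BPS, a ratio of −3.49. CCP1, mitochondrial cytochrome c peroxidase, was at 307 and 37.0 (−3.02). CYC7, the cytochrome c form of low oxygen, was at 53.7 and 11.2 (−2.17). Catalase T, CTT1, had −2.36, ERG11, a P450 enzyme of sterol synthesis, −1.49 and cytochrome b5, CYB5, −1.44. A pair of heme proteins stood above their level without BPS, ERG5 with 0.18 and CYB2 with 0.31, both by less than 2-fold.

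Genes listed for enzymes that use iron without heme or cluster did not follow as a group, with a median of −0.13, 1 of 16 at least 2-fold higher and 3 lower. ERG3, the sterol desaturase, was at 772 and 2207, a ratio of 1.51. OLE1, the fatty acid desaturase, was at 1328 and 2502 (0.91). Lower were SCS7, which hydroxylates sphingolipids (4-fold, from 198 to 48.6, shared locus), RNR4, a small subunit of ribonucleotide reductase (−1.44), and GIS1, a demethylase-like transcription factor (−1.10). RNR4 is counted in the list, although the iron is bound by its partner, the small subunit Rnr2. RNR2 had −0.89. RNR1, the large subunit, was at 104 and 183 (0.81), and WTM1, which anchors the small subunits in the nucleus, at 453 and 130 (−1.80).

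**Figure D3:**
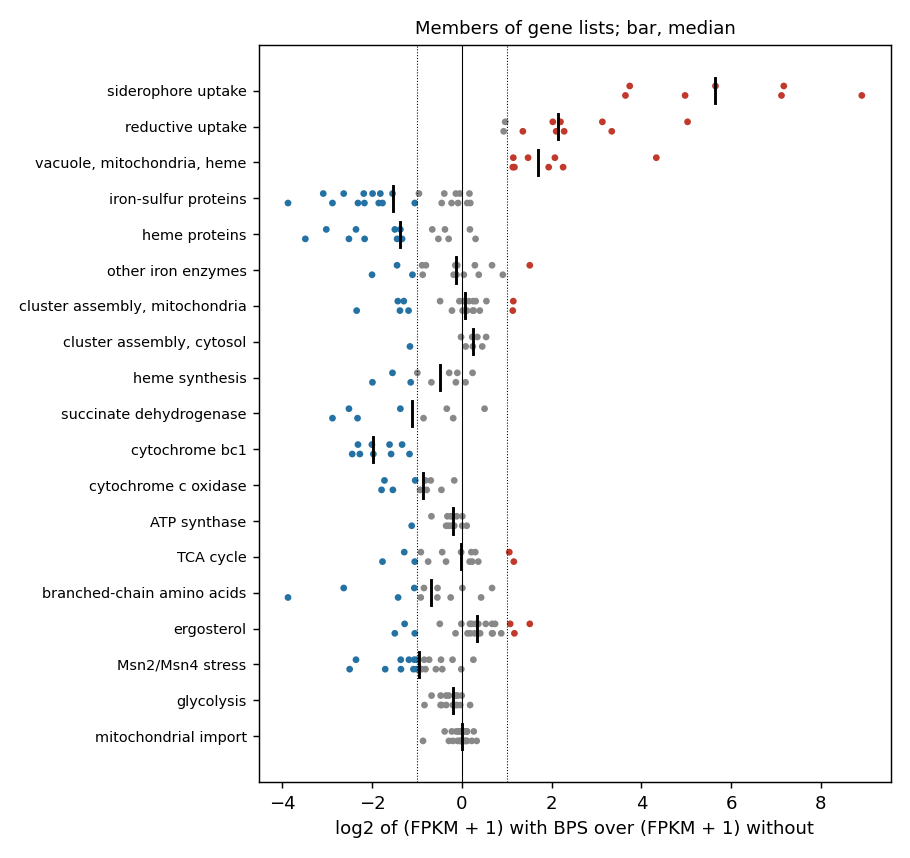
Ratio of each member of 19 gene lists, with BPS over without (1 library each, horizontal, log2). Points are genes, red at 2-fold or more higher and blue at 2-fold or more lower, and the bar is the median of the list, which runs from 5.65 for siderophore uptake to −1.97 for the cytochrome bc1 complex.

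The AU-rich element that Tis11 is known to bind was then looked for after the stop codons, as the letters TTATTTAT on the strand of the gene in 300 bases of the R64 sequence. Single sites are shown from genes with low ratios that cover the main functions, amino acid synthesis, respiration, cluster assembly, heme synthesis and vacuolar storage, with capitals on the element and T standing for U. SDH2 holds 2 overlapping copies in 1 run. The sites are LEU1 at chrVII:476213-476236 (− strand), CYC1 at chrX:526818-526841 (+ strand), GLT1 at chrIV:149174-149197 (− strand), CCP1 at chrXI:566080-566103 (− strand), SDH2 at chrXII:52950-52977 (− strand), ISA1 at chrXII:88193-88216 (+ strand), HEM15 at chrXV:663617-663640 (+ strand), CCC1 at chrXII:577929-577952 (+ strand) and ACO1 at chrXII:735165-735188 (− strand).
LEU1: caaactacTTATTTATtattaata
CYC1: taagaacgTTATTTATatttcaaa
GLT1: ttgagttaTTATTTATtttatgat
CCP1: gaaagataTTATTTATtggttata
SDH2: tatgactaTTATTTATTTATcattggca
ISA1: ctattcacTTATTTATtcatttac
HEM15: atattctcTTATTTATtaattgag
CCC1: ctttaaatTTATTTATattaatga
ACO1: aaaggttaTTATTTATtttgtctt

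GLT1 carried 13 matches in its window, counted with overlaps, SDH1 carried 7, ACO1 5, and LEU1, LYS4 and LIP5 3 each. Over all genes that passed the filter and had a window, 398 of 5733 held TTATTTAT, which is 6.94%. Of the genes at least 2-fold lower it was 77 of 195 (39.5%), of those at least 4-fold lower 25 of 44 (56.8%), and of those at least 2-fold higher 13 of 148 (8.78%). The reverse complement ATAAATAA, with the same share of A and T together, was in 6.31% of all windows and in 6 of 195 lower genes (3.08%). The share among lower genes was thus above the overall share on the sense strand and not on the other.

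Within the iron-using lists, 19 of 25 genes at least 2-fold lower held the element (76.0%), against 7 of the 29 others (24.1%). The 6 lower genes without it were CYT1, DPH2, GIS1, ILV3, RIP1 and RLI1. The 7 with it that were not 2-fold lower were CTA1, CYB2, DAP1, IRC21, LIA1, OLE1 and RNR2. Of 15 heme proteins 12 held it, and of the regulon genes 4 did, FIT1, FRE3, SMF3 and TIS11 itself.

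Ratios were lower where the element occurred more often. The median was 0.01 for 5335 genes with no match, −0.18 for 328 genes with 1 and −0.95 for 70 genes with 2 or more, of which 48.6% were at least 2-fold lower and 0 were higher. Genes in none of the lists had the same order, 0.01 for 4851 genes, −0.14 for 262 and −0.69 for 36. In the other pairs, after a trend with gene length and level was removed, genes with 2 or more matches had medians of −0.74 in AFT1-C291F and of −0.63 and −0.43 in mmm1Δ replicates 1 and 2. For those in none of the lists the medians were nearer 0, at −0.44, −0.49 and −0.19 in the same order.

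**Figure D4:**
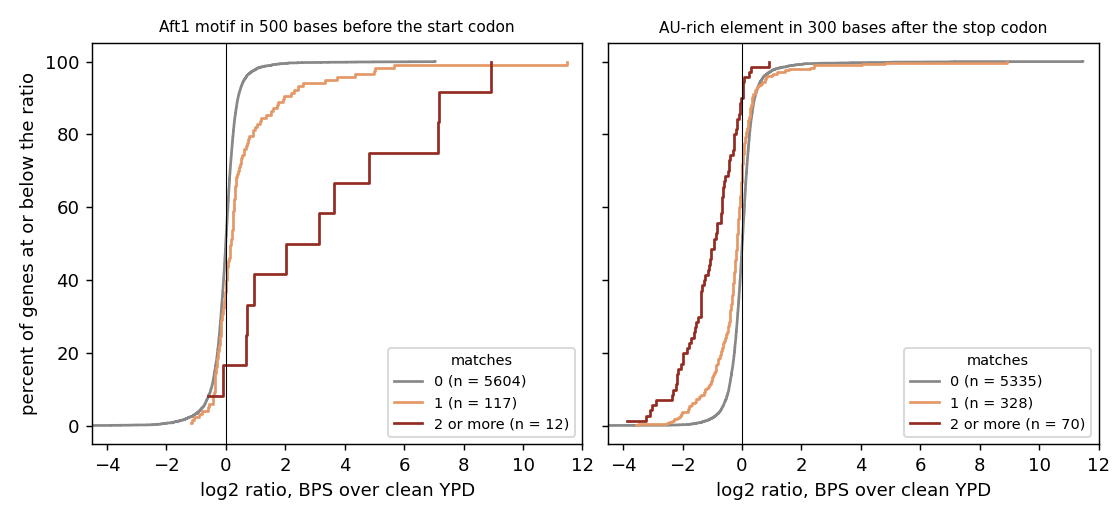
Share of genes (vertical, percent) at or below each log2 ratio of BPS over clean YPD (horizontal), by the number of Aft1 motif matches before the start codon (left) or of AU-rich elements after the stop codon (right). The curve for 2 or more Aft1 motifs (12 genes) is shifted right, with a median of 2.58 (0.28 for the 4 of them in no list), and that for 2 or more AU-rich elements (70 genes) left, with a median of −0.95.

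The machinery that builds iron-sulfur clusters in mitochondria was split. Its 20 genes had a median of 0.07, with 2 at least 2-fold higher, the scaffolds ISU1 and ISU2, and 5 lower. ISA1, needed for clusters with 4 irons, was at 157 without and 30.01 with BPS (−2.34), while ISA2 and IBA57, which act with it, had 0.02 and −0.05. The glutaredoxin GRX5 had −1.43, the targeting factors NFU1 and AIM1 (also named BOL3) −1.38 and −1.19, and frataxin, YFH1, −1.29. The cysteine desulfurase NFS1 and its partner ISD11 had 0.31 and 0.40, and the exporter ATM1 0.25. In the cytosolic branch, 1 of 8 genes was lower, the electron carrier DRE2 at −1.16.

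In heme synthesis, 3 of 10 genes were lower and the median was −0.48. HEM15, ferrochelatase, which puts iron into the ring, was at 147 and 36.1 (−1.99). COX15, which makes heme a, had −1.55 and HEM1, the first step, −1.14, though 0.20 against WT replicate 2 in YPD with ratios centred. HEM13, which needs oxygen, was at 318 and 160 (−0.99), and HEM2, HEM12, HEM14 and HEM4 had ratios between −0.13 and 0.24.

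Of the respiratory complexes listed, cytochrome bc1 had the lowest median and ATP synthase the least low. All 9 nuclear subunits of the cytochrome bc1 complex on the list were at least 2-fold lower, with a median of −1.97. QCR2, a core subunit, was at 171 without and 30.5 with BPS (−2.44), and QCR7 at 578 and 147 (−1.97). The least low was QCR8 with −1.17. Neither Qcr2 nor Qcr7 carries heme or a cluster.

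Succinate dehydrogenase had 4 of 8 lower, and these were its 4 structural subunits, SDH2 (−2.88), SDH3 (−2.52), SDH1 (−2.32) and SDH4 (−1.37). Its assembly factors SDH5 to SDH8 had ratios between −0.85 and 0.51. Of 10 genes of cytochrome c oxidase 4 were lower, COX4, COX6, COX5A and COX8, with a list median of −0.87. ATP synthase, which has no iron, had a median of −0.21, and 1 of 15 was lower, its inhibitor INH1 (−1.12). CIR2, a homolog of a human iron-sulfur oxidoreductase that passes electrons to ubiquinone, was at 46.5 and 4.09 (−3.22), and NDI1, the NADH dehydrogenase of the matrix side, at 99.0 and 20.6 (−2.21). The 56 proteins of the mitochondrial ribosome had a median of −0.30 with 0 past 2-fold, and the 25 genes of mitochondrial import −0.01 with 0.

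Metabolic pathways that hold an iron enzyme were uneven inside. In branched-chain amino acid synthesis, the enzymes LEU1 and ILV3 had the lowest ratios, BAT1, the mitochondrial aminotransferase, had −1.42 and ILV5 −1.06, and the cytosolic aminotransferase BAT2 had 0.67. LEU1, BAT1 and ILV5 also hold, before the start codon, the palindrome bound by Leu3, CCGG on either side of 2 free bases, as does DRE2, and these were 4 of 195 lower genes against 16 of all 5985 windows. That of LEU1 is shown with the palindrome in capitals, LEU1 at chrVII:478845-478884 (− strand).
LEU1: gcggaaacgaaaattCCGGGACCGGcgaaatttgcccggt

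In glutamate synthesis, GLT1 was low and GDH3, a glutamate dehydrogenase that needs no cluster, was at 19.9 without and 72.2 with BPS (1.81). GDH1, the main such enzyme, had −0.45. In the tricarboxylic acid cycle, whose 15 genes had a median of −0.02, the isocitrate dehydrogenase subunits IDH1 and IDH2 were higher (1.16 and 1.06, IDH2 at a shared locus), and the ketoglutarate dehydrogenase subunit KGD1 (−1.28) and ACO1 were among the lower genes. Of 9 biotin and lipoate genes, the synthases BIO2 and LIP5 were lower and the transporters BIO5 and VHT1 higher. MET6, methionine synthase, had −1.14 and the regulator MET28 −2.11 (shared locus) among 22 genes of sulfur uptake, where MET5 was the third that was lower.

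In ergosterol synthesis, 3 of 24 genes were at least 2-fold higher and 3 lower, with a median of 0.34. Higher were ERG3, the reductase NCP1 that feeds the P450 enzymes (1.17) and ERG27 (1.08, shared locus). Lower were ERG11, ERG7 (−1.28, shared locus) and ERG1 (−1.05). Of 15 genes of hypoxia and cell wall mannoproteins, 5 were higher, TIR1 at 214 and 931 (2.12), DAN1 (1.91), TIR3 (1.57), PAU5 (1.45, one of a family of near-identical copies) and TIR4 (1.05). Yet CYC7 was low and ANB1, a classic gene of low oxygen, had 0.19.

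Other metals gave isolated differences. ZRT1, the high-affinity zinc transporter, was at 79.4 without and 429 with BPS (2.42), and FET4, a low-affinity importer of iron and other metals, at 122 and 479 (1.96). In the 10 other libraries ZRT1 ranged from 82.3 to 422, the highest being WT replicate 2 in YPD, and against that library, with ratios centred, its ratio was −0.23. ADH4, a zinc-responsive gene, was lower (−1.28), and ZAP1, the regulator of zinc uptake, had −0.95. The window of ZRT1 holds the zinc-responsive element bound by Zap1, ACCTT and AAGGT on either side of 1 free base, found in 9 of 5985 windows and shown in capitals, ZRT1 at chrVII:20759-20799 (+ strand).
ZRT1: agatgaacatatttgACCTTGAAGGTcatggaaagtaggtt

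Copper transporters were higher, the vacuolar CTR2 at 216 and 788 (1.86) and CTR1 at the surface, which shares a locus, at 101 and 210 (1.05).

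Other lists were not chosen for iron, although single members carry it. Of 20 stress genes driven by Msn2 and Msn4, 10 were lower and 0 higher, with a median of −0.95, though with a pseudocount of 5 the count was 6. They were led by the glycogen synthase GSY1, at 107 without and 18.1 with BPS (−2.50), the heme protein CTT1, and TSL1 of trehalose synthesis (−1.71). Glucose transport had 4 lower of 15, HXT4 (−2.17), the regulator MTH1 (−1.65) and HXT6 and HXT7, which are near-identical and cannot be told apart. The mating agglutinins AGA2 and AGA1 had −1.61 and −1.32. These lists differed in the same pair as the iron genes, and their part in the other differences was not tested.

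None of the 137 cytosolic ribosomal proteins, 25 ribosome biogenesis genes, 14 genes of the unfolded protein response or 17 glycolytic genes was past 2-fold. Their medians were 0.03, 0.14, 0.23 and −0.20. In the Yap1 list of oxidative stress, 1 of 19 was higher, OYE3, at 1.90 and 35.7 (3.66), which passed the filter through its level with BPS, and 1 was lower, CTT1. OYE2, the other such oxidoreductase, had 0.25. The 10 genes of contacts between endoplasmic reticulum and mitochondria had a median of −0.20 and 0 past 2-fold.

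The BPS pair was set beside the AFT1-C291F and mmm1Δ pairs. It shares no library with them, and AFT1-C291F and mmm1Δ replicate 2 share their control. Ratios drift with gene length in AFT1-C291F, with medians of −0.69 under 500 nt to 1.01 in the longest class. They drift less in mmm1Δ replicate 1, from −0.40 to 0.32, and not in replicate 2, with medians between −0.09 and 0.07. The ratios of single genes given for AFT1-C291F and mmm1Δ have a smooth trend with level and length removed, unless stated. Those given for BPS do not. The counts that follow do not either, and no difference was tested. In AFT1-C291F 15.6% of genes were higher and 14.2% lower, and in mmm1Δ 8.28% and 15.8% in replicate 1 and 8.57% and 6.69% in replicate 2, against 3.18% and 3.91% with BPS. Of the genes higher with BPS, 64 were higher there, which is 32.2% of the BPS genes and 6.63% of those of AFT1-C291F. For lower genes it was 104, 42.4% and 11.8%. Of the BPS higher genes, 84 (42.2%) were higher in mmm1Δ replicate 1 and 108 (54.3%) in replicate 2, against 8.28% and 8.57% of all genes. Of 203 genes higher in both mmm1Δ pairs, 65 were higher with BPS, 32.7% of the BPS genes and 32.0% of the mmm1Δ genes. For 218 genes lower in both it was 47, 19.2% and 21.6%. Of the genes lower with BPS, 9 were higher in both mmm1Δ pairs, 3.67% of the BPS genes and 4.43% of the mmm1Δ genes. Of those higher with BPS, 0 were lower in both. Among the BPS lower genes, 82 (33.5%) were lower in mmm1Δ replicate 1 and 81 (33.1%) in replicate 2. The shares of all genes were 15.8% and 6.69%. In AFT1-C291F, 28 of the BPS higher genes were lower (14.1%), against 14.2% of all genes. There, 25 of the BPS lower genes were higher (10.2%), against 15.6%.

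The uptake genes SIT1 and FET3, and TIS11, were high in each of these pairs. SIT1 had 4.98 with BPS, 6.25 in AFT1-C291F, and 4.62 and 5.29 in mmm1Δ. TIS11 had 4.81, 5.96, 3.90 and 4.87 in the same order. FET3 had 3.34, 4.23, 2.06 and 2.57, and 1.26 in mmm1Δ replicate 1 before the trend was removed. With the trend removed from both pairs, Pearson's r between the BPS and AFT1-C291F ratios was 0.91 across 28 regulon genes, and Spearman's rho 0.80. Across all 6098 genes that passed in both, they were 0.15 and 0.17. Before the trend was removed they were 0.88 and 0.76 for the regulon genes and 0.12 and 0.10 for all genes. LSO1, high with BPS, is left out of the 28 because it was under the filter in the AFT1-C291F pair. These values describe genes that share their libraries.

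Some members differed. HMX1, at 4.33 with BPS, had 1.55 in AFT1-C291F and 0.36 and −0.14 in mmm1Δ. FRE2, at 5.03, had 3.83 in AFT1-C291F and 1.65 in mmm1Δ replicate 2. ECM4 had 2.06 with BPS, −0.19 in AFT1-C291F, and 1.47 and 2.37 in mmm1Δ. LSO1, at 2846 with BPS, was at 2.91 in AFT1-C291F against 1.47 in its WT control, and at 1787 in mmm1Δ replicate 2. MRS4 had 1.48 with BPS, 0.18 in AFT1-C291F and 2.30 and 1.18 in mmm1Δ, so that these last 3 genes were high with BPS and in mmm1Δ and near the control in AFT1-C291F.

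On the low side, SDH2 had −2.88 with BPS, −3.20 in AFT1-C291F and −1.66 and −1.43 in mmm1Δ. GLT1, a gene of 6438 nt, had −3.09 with BPS, and there the trend decides the value in AFT1-C291F, −0.96 before its removal (24.4 FPKM in WT and 12.1) and −2.91 after. In mmm1Δ it had −0.61 and −1.12 before and −1.16 and −1.19 after. The ratio of LEU1 was lower with BPS than in the other pairs, at −3.87, −1.95, −1.22 and −1.39, but its level was not. LEU1 was at 44.8 with BPS, above its lowest value in the 10 other libraries, 35.3 in mmm1Δ replicate 1. Without BPS it was at 671, above their highest value, 371 in WT replicate 2. GLT1 without BPS was also above its highest value in those libraries. Those libraries come from other tables with their own scaling. RLI1 had −1.85 with BPS, 0.03 in AFT1-C291F and −0.22 and −0.87 in mmm1Δ. GRX4 and CCC1, at −2.10 and −2.06 with BPS, were at 0.92 and 0.55 in AFT1-C291F (0.31 and 0.11 before the trend was removed) and between −1.30 and −0.83 in mmm1Δ.

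**Figure D5:**
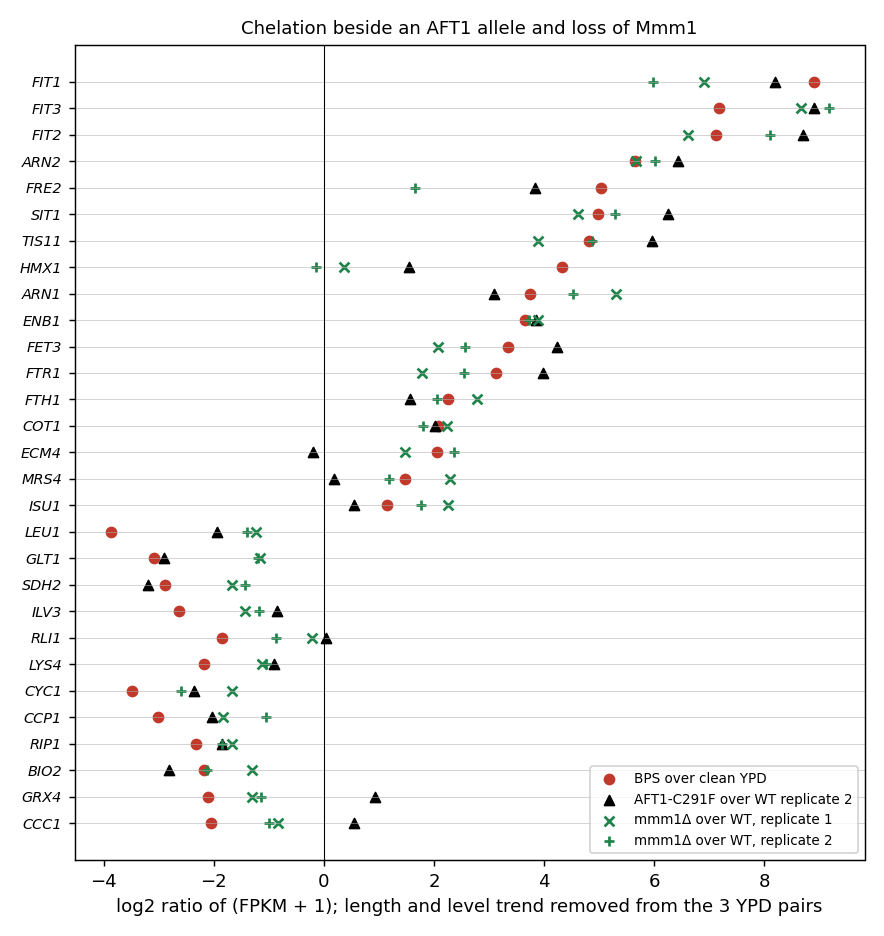
Log2 ratio (horizontal) of 29 genes of the regulon and of iron use in 4 pairs of single libraries, BPS over clean YPD (red circles), AFT1-C291F over WT replicate 2 (black triangles) and mmm1Δ over WT in replicates 1 and 2 (green), the last 3 with the length and level trend removed. The AFT1-C291F point of GLT1 rests on that removal (−0.96 before it). GRX4 and CCC1 are low with BPS (−2.10 and −2.06) and above 0 in AFT1-C291F.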

How the data were processed

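The authors deposited 3 tables of FPKM values (6660 genes), per the file headers, and TopHat2 2.0.8, Cuffdiff 2.0.2 and build sacCer3 are named per the submitters' processing notes, which do not state roles, settings or use of strand. The tables were normalized separately, so ratios were taken within a table. A label of WT replicate 2 names the clean YPD table, but its column stands with the AFT1-C291F library, and it was used there. In each table, 4 emptied lines are not analysed here. Ratios are log2 of (FPKM + 1), for genes whose mean FPKM in a pair was 5 or more. The depth is unknown, and with 1 library a side no test was possible. A shared locus was listed for 1304 genes, which are uncertain. The trend with level and length was removed by lowess (span 0.4, statsmodels 0.14.6, Python 3.11.15). Calculations were tested on simulated data. Windows of 500 bases before start codons and 300 after stop codons came from the RefSeq genome, assembly R64. Of the 6660 identifiers, 5986 were in its annotation and 5365 had the same ends. Members and gene lists, 48 in all, were chosen with earlier results of these data known. Named were list members, those past 2-fold first, and the 15 highest and 15 lowest ratios among genes 300 nt or longer with a locus of their own. Others were chosen after their values were seen. Alternatives were other pseudocounts, filters, scalings, the trend, overlapping genes and another control.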

Additional observations from a re-analysis of the deposited data

How the results depend on the processing

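No paired analysis was possible because each group is 1 library and the results come from no test, and for the same reason no replicate could be left out. Of the 199 higher and 245 lower genes, 100 and 146 were genes 300 nt or longer with a locus of their own, where fewer genes are counted. With WT replicate 2 in YPD, from another table, as the control and ratios centred, the counts were 496 and 765, and the median of the cytosolic ribosomal proteins went from 0.03 to −1.65, and the cause was not tested. Of 476 list medians over all settings, 17 changed sign, 11 of them with that control, and 16 of the 17 lay within 2-fold both ways. Of 129 list members past 2-fold, 120 stayed past it with a pseudocount of 5, 128 with the trend removed and 109 with that control, where HEM1 (0.20) and ZRT1 (−0.23) changed sign. Under the other settings each member with a value stayed past 2-fold. The 15 highest and 15 lowest genes, chosen for their size, stayed past it wherever they had a value, and CTT1 and OYE3 had none at a mean FPKM of 20. The regulon median was between 2.17 and 3.26. Rescaling both libraries to the same sum of FPKM put the median of all genes at −0.04. With unknown depth, ratios of genes of low FPKM are the least sure.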

Other observations

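Of the 199 higher and 245 lower genes, 47 and 82 are in a list. The others were chosen for naming after their values were seen. MYG1, a mitochondrial and nuclear exonuclease, was at 228 without and 17.0 with BPS, a ratio of −3.66, and at −1.35 and −1.62 in the 2 mmm1Δ pairs after removal of the trend with level and length. PBI1, which is little described, was at 8.73 and 160.1 (4.05). HES1, an oxysterol-binding protein, had 3.18, the glutathione transferase GTO3 3.38 and FHN1, of the eisosome, 2.62. FMP23, a mitochondrial protein that holds TGCACCC in its window, was at 17.2 and 108 (2.59). Low among cell wall and other genes were CWP1 (−2.15), the zinc finger gene STP4 (−2.06), SED1 (−1.31) and OM14 of the mitochondrial outer membrane (−1.77). The assembly factors CBP3, CBP4 and CBP6 of cytochrome bc1 had −1.27, −1.70 and −1.49.

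Position along the chromosome also differed in these data. Within 30 kb of a chromosome end lay 27 of 148 genes at least 2-fold higher (18.2%), 13 of 195 at least 2-fold lower (6.67%) and 335 of all 5734 that passed and have coordinates (5.84%). Of the 29 regulon genes 7 lay there (24.1%), among them FIT1, ARN1, ARN2, SIT1, ENB1 and FRE2.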
